A study of Mus musculus with 15 samples.

Results

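Myelin and mature oligodendrocyte genes were followed through injured mouse cortex, in a mixed fraction of cortical cells that holds the oligodendrocytes and in the immune cells of the same kind of tissue. The set held 9 genes, Mbp, Mobp, Mal, Mag, Mog, Opalin, Cldn11, Cnp and Fa2h, out of 33223 genes counted. They were chosen for their known place in myelin. All 9 passed the filter on low counts in every comparison.

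The mice were EphA4f/f-VeCadCreERT2 animals (KO) and EphA4f/f-WT animals (WT), and every animal had a controlled cortical impact to the right parietal cortex 1 day before the cortex of the injured side was taken. Both genotypes carry the floxed Epha4 alleles, and the inducible Cre of the KO is driven by the VE-cadherin promoter, which acts in endothelial cells. The dissociated tissue was passed over CD45 and CD31 microbeads, which hold leukocytes and endothelial cells. RNA came from the flow-through, labelled as the remaining cortical cells, and from the CD45 fraction, labelled as immune cells. The libraries were 3 flow-through KO, 4 flow-through WT, 4 CD45 KO and 3 CD45 WT, with no uninjured animals. The sources used here do not give age or the animal behind each library. The p-values then measure only the spread between the libraries at hand, which may be technical. Of 15 libraries, 1 was left out, namely flow-through WT replicate 5 as the labels have it, because its column is found in the count table of the CD45 fraction.

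Oligodendrocytes wrap axons in a multilayered membrane, the myelin sheath, which speeds conduction and feeds the axon. Compact myelin is held together by basic proteins such as MBP at the cytoplasmic faces of the membrane, while adhesion molecules such as MAG face the axon, and claudin 11 seals the layers with tight junctions. The sheath is rich in galactolipids with 2-hydroxylated fatty acids. Mbp mRNA is carried along the cell's processes and translated beside the sheath, and Mobp mRNA is carried there too. White matter injury is a known part of head trauma.

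Flow-through libraries held 19204814 to 27270907 counts each, and CD45 libraries 11574414 to 31337948. Leukocyte markers (8 genes such as Ptprc and Lyz2) summed to between 7.44 and 13.3 CPM (the count of a gene scaled by the total count of its library) in flow-through libraries, and to between 8484 and 12042 CPM in CD45 libraries. Epha4, the targeted receptor, lay between 36.03 and 42.2 CPM in flow-through KO and between 38.5 and 43.0 CPM in flow-through WT. It lay between 1.69 and 3.54 CPM in CD45 KO and between 2.699 and 2.92 CPM in CD45 WT. Neither fraction is an isolate of the endothelial cells in which the gene is deleted, so these values do not check the deletion.

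The promoters of 3 of the genes are shown because these genes behaved differently across libraries: Mobp moved with Mbp, Cldn11 did not, and Opalin was the gene without overlap between the genotypes. The sequences are those of RefSeq on GRCm38.p6 and run from 250 bases before to 50 bases after the annotated start. Capitals mark matches, on either strand, to ACAAAG (a SOX motif), CAGCTG (an E-box) and CTGGCAC (a MYRF motif). SOX10, the E-box factor OLIG2 and MYRF are the transcription factors that drive oligodendrocyte differentiation. The Mobp window is chr9:120149492-120149791 on the plus strand, the Cldn11 window is chr3:31149670-31149969 on the plus strand, and the Opalin window is chr19:41077064-41077363 on the minus strand.
Mobp: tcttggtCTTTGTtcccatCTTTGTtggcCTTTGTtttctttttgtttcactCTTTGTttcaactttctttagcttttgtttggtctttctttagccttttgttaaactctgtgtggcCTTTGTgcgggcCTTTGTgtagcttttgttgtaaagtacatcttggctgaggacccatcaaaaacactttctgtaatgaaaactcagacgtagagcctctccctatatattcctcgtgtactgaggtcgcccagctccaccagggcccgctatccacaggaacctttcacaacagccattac
Cldn11: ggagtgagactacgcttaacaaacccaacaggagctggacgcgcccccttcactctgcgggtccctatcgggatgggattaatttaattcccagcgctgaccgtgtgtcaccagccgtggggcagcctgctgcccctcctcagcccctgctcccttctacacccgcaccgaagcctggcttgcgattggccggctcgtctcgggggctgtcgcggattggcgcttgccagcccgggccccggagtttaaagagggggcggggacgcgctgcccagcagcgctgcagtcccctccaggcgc
Opalin: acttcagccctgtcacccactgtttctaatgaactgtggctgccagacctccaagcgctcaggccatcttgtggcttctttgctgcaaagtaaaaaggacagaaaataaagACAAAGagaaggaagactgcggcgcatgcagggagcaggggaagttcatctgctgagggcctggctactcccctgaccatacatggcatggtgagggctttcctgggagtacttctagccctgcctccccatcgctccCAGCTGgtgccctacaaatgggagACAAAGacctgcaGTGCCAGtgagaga

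ACAAAG, or its reverse complement, occurs in 18.71% of the 32851 promoter windows of the table, and in those of 4 of the 7 genes that have a window (Mobp, Cnp, Mag and Opalin). The Mobp window holds 6 copies, all as the reverse complement and none overlapping another. CTGGCAC occurs in 5.01% of all windows and in those of Cnp, Mag and Opalin. CTGGTAC, the other MYRF motif searched, occurs in 2.24% of all windows and in that of Mog. CAGCTG occurs in 16.3% of all windows and, of these genes, only in that of Opalin. AACAAT (10.72% of all windows) and TATAAA (13.62%) were in none of the 7. Windows of Cldn11 and Mal held none of the motifs searched, and Mbp and Fa2h have no entry. Mag has several annotated starts, of which the downstream one holds no match. A match is a run of letters and not a shown binding site.

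Together the 9 genes took between 2.67 and 3.50% of counts in flow-through KO libraries and between 1.91 and 2.84% in flow-through WT libraries. Levels are compared between genes as CPM per kb of exon, averaged over the 7 flow-through libraries (± SD). Mbp led with 1785 ± 440 CPM per kb, followed by Mobp with 885 ± 156 and Cldn11 with 702 ± 65.3. Cnp stood at 402 ± 25.3, Mag at 331 ± 26.2 and Mal at 270.1 ± 18.7 CPM per kb. Mog had 167 ± 16.2, Opalin 77.5 ± 4.64 and Fa2h 42.2 ± 3.10 CPM per kb. The ranges over libraries of Mobp and Cldn11 overlapped, while the other neighbours in this order had ranges that did not overlap. Compared library by library, Mobp stood above Cldn11 in all flow-through libraries but WT replicate 4 (598 against 729 CPM per kb). The length of Mbp, 8469 bases of exon over 16 annotated transcripts, includes exons of the golli transcripts that the same locus makes, so its level per length understates the myelin transcripts. In bulk RNA, fewer oligodendrocytes and less of a message per oligodendrocyte cannot be told apart.

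**Figure D1:**
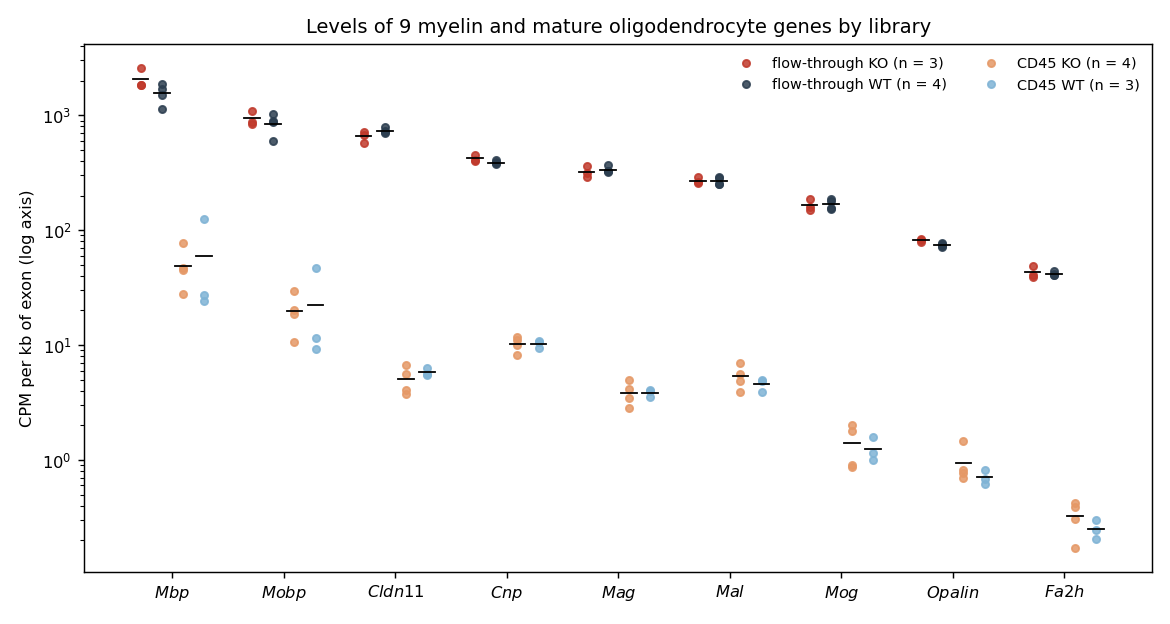
Level of each gene in every library, in CPM per kb of exon on a log axis, with genes in order of their flow-through mean. Points are libraries and black lines are group means. Flow-through libraries (3 KO, 4 WT) lie above the CD45 libraries (4 KO, 3 WT) for all 9 genes, and Mbp and Mobp spread most within the CD45 fraction.

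Mbp encodes myelin basic protein, which presses the cytoplasmic faces of the membrane together. The gene spans 82475146 to 82585637 on the plus strand of chromosome 18 (GRCm38). Mbp had 15624, 15528 and 21856 CPM in the flow-through KO libraries (replicates 1 to 3), against 16005, 14479, 12715 and 9603 CPM in the WT libraries (replicates 1 to 4). KO replicate 3 was the highest library and WT replicate 4 the lowest, and the groups overlapped because WT replicate 1 exceeded KO replicates 1 and 2. The KO over WT difference was 0.44 on the log2 scale (SE 0.19, 95% interval 0.034 to 0.85, unadjusted p = 0.0357, adjusted p = 0.396 by edgeR), so Mbp did not pass the test over all genes. Without KO replicate 3 the difference was 0.27, without WT replicate 4 it was 0.31, and without both it was 0.13 (SE 0.15, edgeR adjusted p = 0.976).

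Mobp encodes myelin-associated oligodendrocytic basic protein, another small basic protein of compact central myelin, on the plus strand of chromosome 9 at 120149707 to 120181484. It had 6029.5, 5752 and 7499 CPM in flow-through KO, against 6970.2, 5946, 6132 and 4096 CPM in flow-through WT. KO replicate 3 was again the highest and WT replicate 4 the lowest, and the groups overlapped. The difference was 0.17 (log2, SE 0.18, edgeR adjusted p = 0.787) and turned to -0.089 without those 2 libraries. Of the exon bases of Mobp, 1.153% are shared with the predicted gene Gm38642 on the same strand.

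Mal encodes a proteolipid of compact myelin that takes part in sorting membrane to the sheath, and lies on the minus strand of chromosome 2 at 127633226 to 127656695. It had 809.5, 708 and 735 CPM in flow-through KO, against 786, 697, 814 and 702 CPM in flow-through WT. The groups covered the same range, with a log2 difference of 0.025 (SE 0.11, edgeR adjusted p = 0.957).

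Mag, the adhesion molecule of the membrane that faces the axon, lies on the minus strand of chromosome 7 at 30899176 to 30914873. It had 1194, 1287 and 1469 CPM in flow-through KO, against 1323.5, 1505, 1335 and 1319 CPM in flow-through WT. The libraries of the genotypes interleaved, and the log2 difference was -0.033 (SE 0.10, edgeR adjusted p = 0.940). Mog, an immunoglobulin-type protein of the outermost sheath surface, lies on the minus strand of chromosome 17 at 37010743 to 37023398. It had 274, 254 and 319 CPM in flow-through KO, against 305, 317, 265 and 263 CPM in flow-through WT. Its log2 difference was -0.001 (SE 0.10, edgeR adjusted p = 0.998), with the highest library in KO and the next highest in WT.

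Opalin encodes a transmembrane sialylglycoprotein of central oligodendrocytes and lies on the minus strand of chromosome 19 at 41061710 to 41077113. It had 231, 247 and 243 CPM in flow-through KO, against 214, 229.8, 209.95 and 225 CPM in flow-through WT. All KO libraries lay above all WT libraries, the lowest KO library just above the highest WT library. The log2 difference was 0.16 (SE 0.078, 95% interval -0.013 to 0.33, edgeR adjusted p = 0.507), so Opalin did not pass the test. Of all genes tested, 5.19% had every KO library above every WT library in CPM and 6.78% had every KO library below. One gene of 9 in the first class and 0 of 9 in the second is near those shares.

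Cldn11, the tight junction protein of the sheath, lies on the plus strand of chromosome 3 at 31149920 to 31164324. It had 1327, 1271 and 1082 CPM in flow-through KO, against 1338, 1316, 1489 and 1362.5 CPM in flow-through WT. KO replicate 3, the library highest in Mbp, was the lowest in Cldn11, and KO replicate 1 lay within the WT range. The log2 difference was -0.14 (SE 0.11, edgeR adjusted p = 0.710).

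The set holds 2 enzymes. Cnp, a phosphodiesterase of non-compact myelin, lies on the plus strand of chromosome 11 at 100574904 to 100591729 and shares 4.232% of its exon bases with Dnajc7 on the opposite strand. It had 1466, 1488 and 1639 CPM in flow-through KO, against 1385, 1479, 1415.5 and 1361 CPM in flow-through WT. Its log2 difference was 0.14 (SE 0.096, edgeR adjusted p = 0.643), and WT replicate 2 lay within the KO range. Fa2h, which makes the 2-hydroxylated fatty acids of myelin galactolipids, lies on the minus strand of chromosome 8 at 111345135 to 111393824. It had 122, 118 and 146 CPM in flow-through KO, against 123.4, 123.3, 124 and 132 CPM in flow-through WT. The groups overlapped, with a log2 difference of 0.064 (SE 0.087, edgeR adjusted p = 0.851).

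In the flow-through, then, 0 of 9 genes passed the genotype test, where 260 of 16546 genes tested did (1.57%). At an unadjusted p under 0.05 by edgeR the count was 1, Mbp, where 1814 of the 16546 genes tested had such a p. One gene of 9 is near that share. Of the 9 differences, 6 were positive and 3 negative, with a median of 0.064 on the log2 scale against -0.007 over all genes tested. The intervals bound the size: apart from Mbp and Mobp, whose intervals reached 0.85 and 0.55, the upper bounds did not exceed 0.35 and the lower bounds did not pass -0.38. In the same libraries 3 of 12 neuronal markers rose in KO and 1 fell, with a list median of 0.66. Slc17a7 (1.19), Syn1 (0.58) and Slc12a5 (1.03) were the markers that rose and Gad2 (-0.42) the one that fell, with edgeR adjusted p from 0.00166 to 0.0494. The 12 summed to between 728 and 941 CPM in flow-through KO and between 593 and 802 CPM in flow-through WT. Their part in the values of the myelin genes was not tested.

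**Figure D2:**
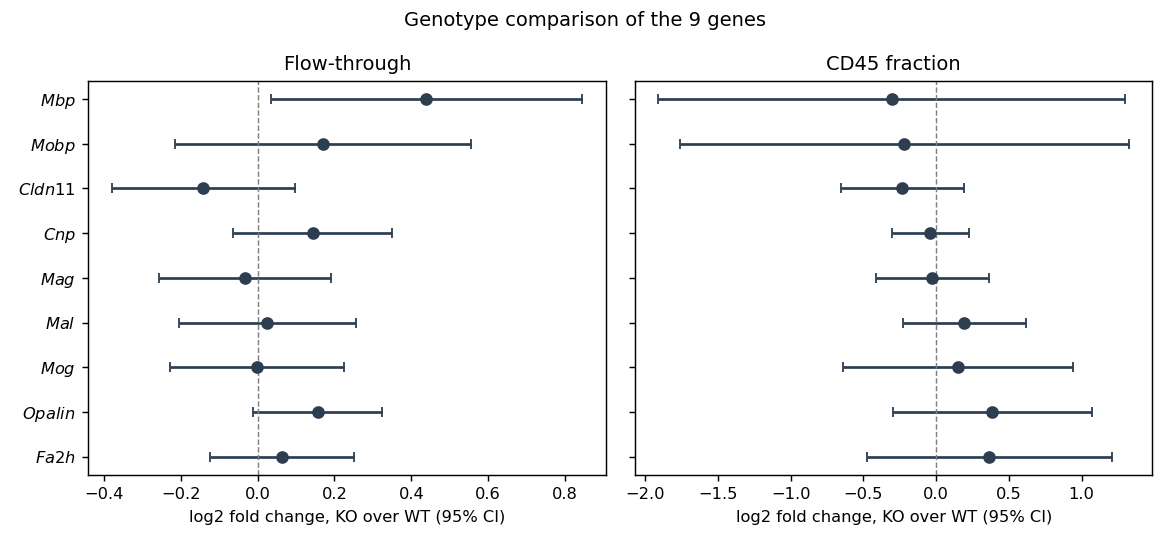
KO over WT log2 fold change of each gene with an approximate 95% interval derived from the edgeR test. Flow-through libraries (3 KO, 4 WT) are on the left and CD45 libraries (4 KO, 3 WT) on the right, on axes of different width. Mbp in the flow-through is the gene whose interval leaves 0 (0.034 to 0.85), and in the CD45 panel the intervals of Mbp (-1.91 to 1.297) and Mobp (-1.76 to 1.33) are the widest.

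Myelin messages were also counted in the CD45 fraction, far below their flow-through level. Over 7 flow-through and 7 CD45 libraries, all 9 genes were higher in the flow-through by the edgeR test, a direction that 44.7% of the 18098 genes tested shared. Their median difference was 5.89 on the log2 scale, against 0.054 over all genes tested, and upper-quartile scaling in place of TMM moved these medians to 6.14 and 0.31. For each of the 9, the lowest flow-through library stood above the highest CD45 library, as for 8989 of the 18098 genes tested. The log2 differences were 6.64 for Fa2h (SE 0.12), 6.47 for Cldn11 (SE 0.13) and 6.43 for Mog (SE 0.17). Opalin differed by 6.04 (SE 0.13), Mag by 5.89 (SE 0.12) and Mal by 5.25 (SE 0.12). The differences were smallest for Mobp at 4.87 (SE 0.40), Cnp at 4.77 (SE 0.089) and Mbp at 4.53 (SE 0.42), with edgeR adjusted p from 1.44e-07 for Mbp to 3.24e-17 for Fa2h.

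**Figure D3:**
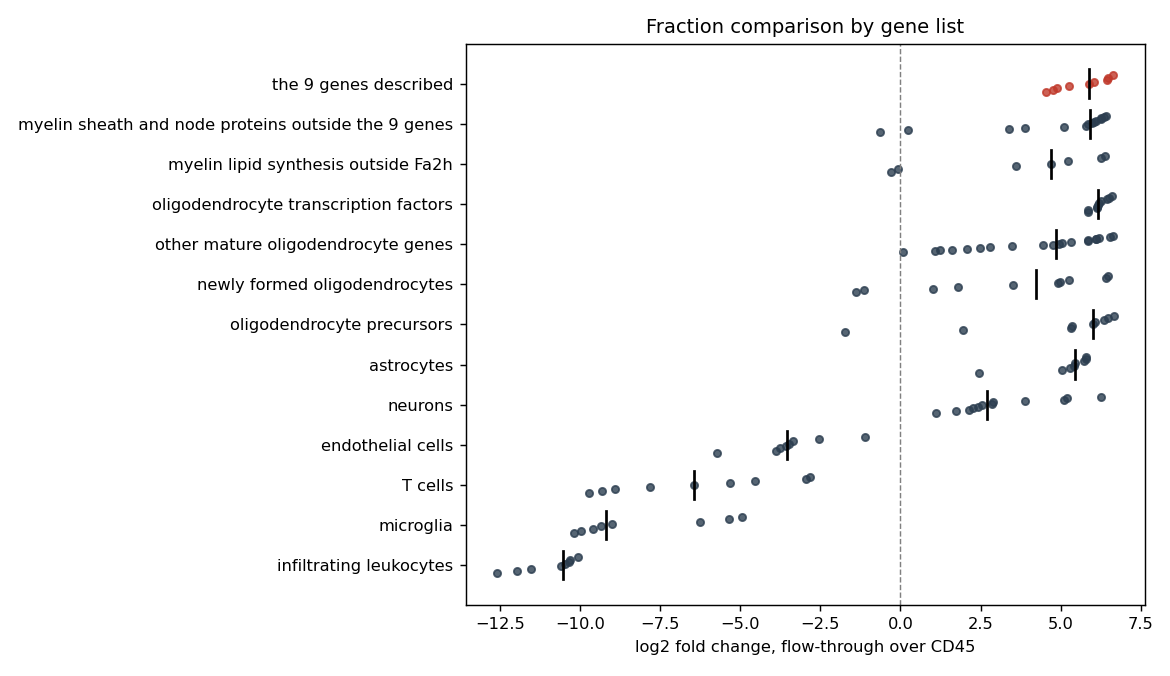
Log2 fold change of flow-through over CD45 libraries (7 each) for each gene of 13 lists, 1 point per gene, with the list median as a black line. The 9 genes described (red) lie between 4.53 and 6.64, where the medians of most other oligodendrocyte lists and of astrocyte genes also lie, while microglial, leukocyte and T cell genes lie below 0.

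Within the CD45 fraction the order of levels per length was that of the flow-through except that Cnp stood above Cldn11 and Mal above Mag. Mbp averaged 53.5 ± 36.8 CPM per kb and Mobp 20.9 ± 13.3 (SD, n = 7). Cnp averaged 10.3 ± 1.20, Cldn11 5.36 ± 1.07, Mal 4.999 ± 1.07 and Mag 3.85 ± 0.68 CPM per kb. Mog averaged 1.33 ± 0.46, Opalin 0.84 ± 0.29 and Fa2h 0.29 ± 0.092 CPM per kb. Ranges over libraries were clear of each other between Cnp and Cldn11, between Mag and Mog and between Opalin and Fa2h, and overlapped between all other neighbours in this order. Compared library by library, Mbp stood above Mobp per length in every CD45 library. As a share of the summed level per length of the 9 genes, Mbp made up 37.8 ± 4.77% in flow-through libraries and 49.2 ± 9.52% in CD45 libraries. Cldn11 made up 15.4 ± 2.96% in the flow-through and 6.26 ± 2.85% in the CD45 fraction, and Cnp 8.69 ± 0.77% and 12.1 ± 5.10% (SD, n = 7 each).

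The CD45 libraries differed from each other mainly in Mbp and Mobp. Mbp had 236, 399, 379 and 649 CPM in CD45 KO (replicates 1 to 4), against 232, 206 and 1068 CPM in CD45 WT (replicates 1 to 3). Mobp had 72.8, 139, 128 and 201 CPM in CD45 KO, against 78.2, 63.7 and 318 CPM in CD45 WT. WT replicate 3 stood above every other CD45 library for both genes and KO replicate 4 came next, so the highest Mbp value was 5.17 times the lowest.

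The other 7 genes did not follow this pattern. Summed, they had between 69.9 and 104 CPM in CD45 KO and between 76.4 and 86.5 CPM in CD45 WT. The ratio of Mbp plus Mobp to the other 7 genes was 3.65, 5.18, 6.82 and 12.2 in CD45 KO, against 3.78, 3.12 and 18.1 in CD45 WT. In the flow-through the same ratio was 3.99, 3.96 and 5.21 in KO, against 4.197, 3.60, 3.33 and 2.55 in WT. CD45 WT replicate 3 and CD45 KO replicates 3 and 4 were thus above every flow-through library in this ratio, and the other 4 CD45 libraries were within the flow-through range. The ratio of Mbp to Mobp stayed between 2.87 and 3.36 in CD45 libraries, and was between 2.07 and 2.91 in flow-through libraries.

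Cnp showed the narrowest spread of the 9 in the CD45 fraction. It had 40.3, 42.6, 36.3 and 29.7 CPM in CD45 KO, against 38.5, 39.9 and 34.04 CPM in CD45 WT. The libraries highest in Mbp, WT replicate 3 and KO replicate 4, were the lowest in Cnp. Mag had 14.0, 20.3, 11.5 and 16.9 CPM in CD45 KO, against 14.5, 16.1 and 16.5 CPM in CD45 WT. Mal had 13.4, 19.5, 15.5 and 10.9 CPM in CD45 KO, against 13.5, 13.7 and 10.8 CPM in CD45 WT. Cldn11 had 10.4, 12.5, 7.08 and 7.62 CPM in CD45 KO, against 10.3, 11.8 and 10.6 CPM in CD45 WT. For these genes KO replicate 2 was the highest library, and the genotypes overlapped. The least abundant genes rest on few reads: Mog on 17 to 95 counts per CD45 library, Opalin on 24 to 89 and Fa2h on 6 to 37. Mog ranged from 1.47 to 3.44 CPM in CD45 KO and from 1.70 to 2.68 CPM in CD45 WT.

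No gene of the set passed the genotype test in the CD45 fraction. By edgeR, 0 of 9 were called and 0 of 15660 genes tested (0%), where 693 genes had an unadjusted p under 0.05, none of them among the 9, and DESeq2 called 5 genes. Genes without overlap in CPM made up 2.92% (KO above) and 2.16% (KO below) of those tested and included 0 of the 9. Mbp differed by -0.31 (log2, SE 0.67) and Mobp by -0.22 (SE 0.64), each with an edgeR adjusted p of 0.989 or above. Without WT replicate 3 these values were 0.91 (SE 0.39) and 0.91 (SE 0.40), so the direction rests on that library. The other 7 differences lay between -0.23 (Cldn11, SE 0.19) and 0.39 (Opalin, SE 0.31), and the median of the 9 was -0.026 against 0.02 over all genes. The genotype difference in the flow-through minus that in the CD45 fraction was called for 0 of 9 genes and 0 of 18098 (0%) by edgeR. At an unadjusted p under 0.05 the count was 1305 genes, none of them among the 9, and DESeq2 called 45 genes, none of them among the 9. This difference of differences lay between -0.33 (Fa2h, SE 0.25) and 0.78 (Mbp, SE 0.70).

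**Figure D4:**
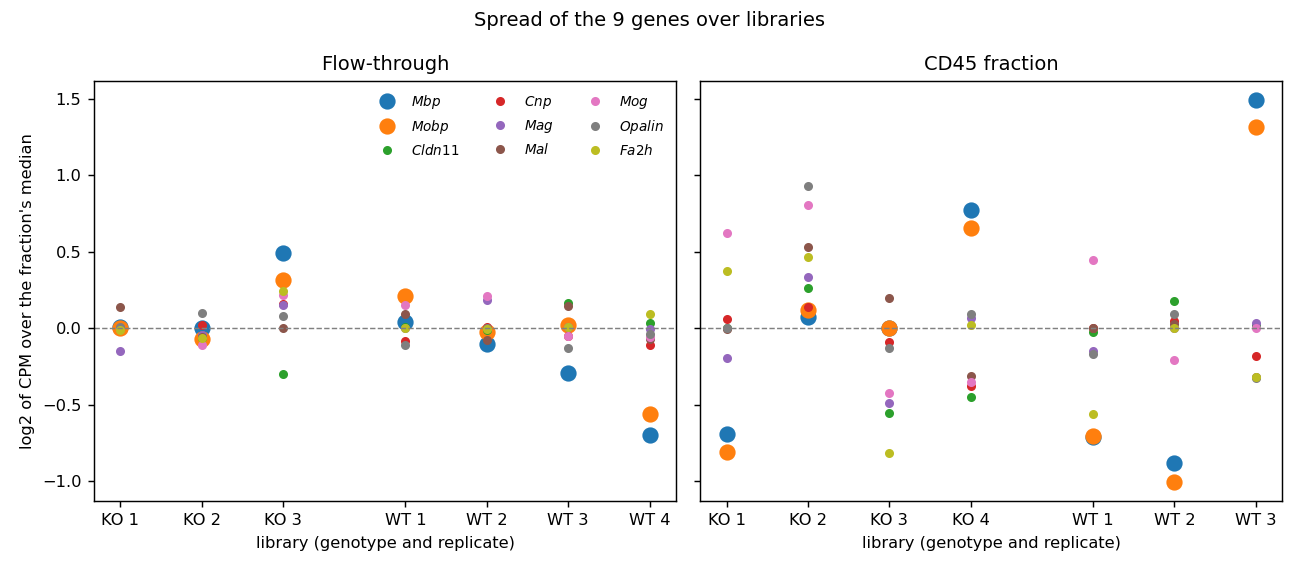
Log2 of each gene's CPM over its median in the fraction, by library, for the flow-through (left) and the CD45 fraction (right). Large points are Mbp and Mobp and small points the other 7 genes. In CD45 WT 3 and KO 4 both large points rise together while the small points stay near or below 0, and in the flow-through KO 3 and WT 4 hold the highest and lowest large points.

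The joint movement of Mbp with each other gene was measured over the 7 libraries of each fraction, as 16 relations of log2 (CPM + 0.5) with exact two-sided permutation tests. In CD45 libraries Mbp and Mobp had r = 0.996 (exact permutation p = 0.000397, adjusted p = 0.00635) and rho = 0.964 (exact permutation p = 0.00278, adjusted p = 0.0444). The relation was r = 0.992 without WT replicates 2 and 3, the libraries farthest from the median of Mbp. In flow-through libraries the same pair had r = 0.902 (exact permutation p = 0.0139, adjusted p = 0.111) and rho = 0.75 (exact permutation p = 0.0663, adjusted p = 0.530). It rests on the extreme libraries, since r was 0.244 without WT replicate 4 and KO replicate 3. Mbp and Cldn11 had a negative relation in the flow-through that did not pass the adjusted test, with r = -0.762 (exact permutation p = 0.0538, adjusted p = 0.215), rho = -0.643 (exact permutation p = 0.139, adjusted p = 0.610) and r = -0.844 without the same libraries. The remaining relations, including that of Mbp with Cnp (r = 0.836 in the flow-through and -0.682 in the CD45 fraction), had adjusted p of 0.175 or above.

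Over all 36 pairs of the 9 genes in the flow-through, on log2 CPM with TMM scaling, r had a median of 0.406, ran from -0.66 to 0.915 and was negative for 9 pairs. KO replicate 3 was the highest library for 5 of the 9 genes and WT replicate 4 the lowest for 5. The set did not move as 1 block, and most of its summed CPM was Mbp and Mobp.

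The genes most like the set in the flow-through were found by r between their log2 CPM and the mean standardized level of the 9 over 7 libraries. Of 13590 candidates, 109 had r above 0.9. The nearest were Bcas1 (0.988), a marker of early myelinating oligodendrocytes, Hexim2 (0.987), Trp53inp2 (0.978), Sgk2 (0.977), Eif1ad (0.974), Gpr107 (0.969), Tbc1d10b (0.969), Adgrg1 (0.968), Trak2 (0.967) and Cacng4 (0.966). These values describe libraries that share depth and preparation and carry no test. In the CD45 fraction, Bcas1 (r = 0.977) and Trp53inp2 (r = 0.943) also moved with Mbp. The other genes of that list had r with Mbp from -0.519 (Hexim2) to 0.765 (Trak2) there, and Sgk2, at a mean of 0.04 CPM, was too low to be measured.

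In the CD45 fraction the genes nearest to Mbp, chosen after their values were seen, were Mobp, Plekhb1 (0.993), Dbndd2 (0.987), Prr18 (0.986), Hipk2 (0.981), Bcas1 (0.977), Gfod1 (0.974), Pkp4 (0.973), Scd1 (0.970) and Nckap5l (0.969). Plekhb1 and Prr18 are on the list of other mature oligodendrocyte genes. Plekhb1 had 12.99, 25.8, 22.3 and 45.3 CPM in CD45 KO, against 13.1, 10.9 and 62.5 CPM in CD45 WT. Its high libraries were those high in Mbp, WT replicate 3 and KO replicate 4. Of these 10 genes, 7 had r above 0.9 with Mbp in flow-through libraries as well, while Hipk2 (0.101), Nckap5l (0.155) and Gfod1 (0.433) did not. For Mobp, 1 of the 7, the flow-through r on log2 (CPM + 0.5) was 0.244 without WT replicate 4 and KO replicate 3. For the non-member genes r was not recalculated in that way. Over 10832 genes measured in both fractions, 178 had r above 0.9 with Mbp in the flow-through and 89 in the CD45 fraction. The 14 genes in both sets are 7.9% of the flow-through set and 15.7% of the CD45 set, whose sizes are 1.64% and 0.82% of all the genes.

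Marker lists were summed in the same CD45 libraries. The 10 transcription factors of the oligodendrocyte lineage summed to 17.3, 24.5, 11.1 and 18.1 CPM in CD45 KO, against 16.6, 17.9 and 16.8 CPM in CD45 WT. Neuronal markers summed to 38.4, 174, 69.5 and 81.7 CPM in CD45 KO, against 28.7, 59.7 and 46.5 CPM in CD45 WT. T cell markers summed to 40.0, 31.2, 55.6 and 57.5 CPM in CD45 KO, against 37.5, 32.3 and 53.1 CPM in CD45 WT. KO replicate 4 and WT replicate 3, the highest in Mbp, were among the 3 highest in T cell markers. In the transcription factor and neuronal lists KO replicate 2 was the highest, KO replicate 4 came next and WT replicate 3 stood below the median. Some lists of the oligodendrocyte programme were highest in the same libraries as Mbp. Proteins of sheath and node summed to 673, 777, 792 and 879 CPM in CD45 KO, against 731, 672 and 925 CPM in CD45 WT. Most of the sheath and node sum was Cd9, which leukocytes also express, at a mean of 557 CPM in CD45 KO and 546 CPM in CD45 WT. Genes of newly formed oligodendrocytes summed to 179.85, 219, 203 and 246 CPM in CD45 KO, against 194.4, 194.2 and 268 CPM in CD45 WT. Their sum includes Bcas1, with 81.2 CPM in WT replicate 3 and 71.0 CPM in KO replicate 4, against 20.2 to 42.9 CPM in the other CD45 libraries. Other mature oligodendrocyte genes, which include Plekhb1 and Prr18, summed to 997, 998, 1013 and 1158.5 CPM in CD45 KO, against 1009, 1067 and 1106 CPM in CD45 WT. Bcas1, Plekhb1 and Prr18 were named above for their likeness to Mbp in these same libraries, so their lists are not independent of that choice. WT replicate 3 and KO replicate 4 were the highest libraries in the sheath and node, newly formed and other mature lists. Lipid synthesis genes outside Fa2h summed to 408, 402, 396 and 369 CPM in CD45 KO, against 399, 436 and 395 CPM in CD45 WT. In that list KO replicate 4 was the lowest library and WT replicate 3 the next lowest, just below KO replicate 3. Most of the lipid sum was Cers2 and Elovl1, with means of 257 and 123 CPM in CD45 KO and 273 and 125 CPM in CD45 WT. Ugt8a, with means of 2.50 CPM in CD45 KO and 2.28 CPM in CD45 WT, added little to it. Infiltrating leukocyte markers summed to 10219, 10134, 11367 and 10103 CPM in CD45 KO, against 12042, 10801 and 8484 CPM in CD45 WT, with WT replicate 3 the lowest and KO replicate 4 next. Microglia markers lay between 5015 and 6330 CPM in CD45 KO and between 4734 and 5334 CPM in CD45 WT. Precursor genes lay between 458 and 729.8 CPM in CD45 KO and between 412 and 587 CPM in CD45 WT, with WT replicate 3 the lowest. Most of that sum was Vcan, which macrophages also make, at a mean of 563 CPM in CD45 KO and 463 CPM in CD45 WT. Precursor sums in this fraction therefore do not measure precursor cells. The part of the cell types behind these lists in the Mbp values was not tested.

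For Mbp and Mobp the size of the fraction difference depends on the CD45 libraries highest in Mbp. The median of the 9 differences was 5.89 with those libraries and 5.92 without them. Without CD45 KO replicate 4 and CD45 WT replicate 3, the flow-through over CD45 difference was 5.28 for Mbp and 5.56 for Mobp on the log2 scale, and 4.69 for Cnp, which then was the smallest of the 9. All 9 genes passed the edgeR test in that fit too.

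The rest of the oligodendrocyte programme was measured through lists chosen by known role. Of 14 proteins of sheath and node, 13 were higher in the flow-through and 1 lower, with a median log2 difference of 5.91. Nfasc and Cntn2, adhesion molecules of the node region, and the tetraspanin Tspan2 were higher in the flow-through by 5.99, 6.03 and 5.11. Cd9, which leukocytes also express, was the gene that was lower, by -0.63, and shares 10.665% of its exon bases with Gm26728 on the opposite strand. In plain CPM its libraries overlapped, with 464 to 573 CPM in the flow-through and 460 to 665 CPM in the CD45 fraction.

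The lipid enzymes divided. Of 8, 7 could be tested and 5 were higher in the flow-through, led by Ugt8a, the galactosyltransferase of myelin galactolipids, at 6.38 (log2, SE 0.20). Cers2, a ceramide synthase, differed by -0.089 (SE 0.054, edgeR adjusted p = 0.128), and Elovl1, a fatty acid elongase, was lower at -0.29 (SE 0.051). The direction of Elovl1 depends on the scaling between fractions, since in plain CPM it had 140.5 to 154 in flow-through libraries and 118 to 130.3 in CD45 libraries. Cers2 had between 345 and 357 CPM in flow-through KO and between 355 and 380.04 CPM in flow-through WT, and between 242 and 294 CPM in CD45 libraries, so it was abundant in both fractions. By genotype 0 of 7 were called in the flow-through, with a median of -0.05.

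All 10 lineage transcription factors were higher in the flow-through, with log2 differences from 5.85 to 6.61. Myrf, the regulator of myelin genes, had between 669 and 776 CPM in flow-through KO and between 543 and 748 CPM in flow-through WT. By genotype 0 of 10 were called, and 9 of the 10 differences were positive, with a median of 0.17 in a comparison whose median over all genes was -0.007. Olig1 differed by 0.19 (SE 0.096), Sox10 by 0.23 (SE 0.095), Olig2 by 0.14 (SE 0.088) and Myrf by 0.063 (SE 0.12), with edgeR adjusted p from 0.377 to 0.891.

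Among 20 other mature oligodendrocyte genes, 19 were higher in the flow-through (median 4.85), and 0 were called by genotype (median 0.10). Trf, which encodes transferrin, the iron carrier, had between 2826 and 3446 CPM in flow-through KO and between 3840 and 4092 CPM in flow-through WT. Apod, a lipid carrier, had between 643 and 788 CPM in flow-through KO and between 836.5 and 973 CPM in flow-through WT. Their log2 differences were -0.29 for Trf (SE 0.11, edgeR adjusted p = 0.320) and -0.32 for Apod (SE 0.10, edgeR adjusted p = 0.212), which did not pass. Of the exon bases of Trf, 63.494% are shared with Gm20425 on the same strand, so its values are uncertain. In the other direction, Gamt, the last enzyme of creatine synthesis, had between 25.7 and 29.6 CPM in flow-through KO and between 19.2 and 24.3 CPM in flow-through WT. Its log2 difference of 0.33 (SE 0.10, edgeR adjusted p = 0.201) did not pass, nor did that of Sirt2, a tubulin deacetylase, at 0.24 (SE 0.095, edgeR adjusted p = 0.347). These 4 genes were those of the 20 without overlap between genotypes in CPM, with 2 of 20 above and 2 of 20 below, where 5.19% and 6.78% of all genes tested were. Car2, a carbonic anhydrase, differed by 0.043 (SE 0.091) and Plekhb1 by 0.25 (SE 0.17).

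Earlier stages gave 0 calls by genotype too. Among 10 genes of newly formed oligodendrocytes the median was 0.13, with Bcas1 at 0.25 (SE 0.18) and Enpp6 at 0.012 (SE 0.090). Among 9 precursor genes the median was 0.13, with Pdgfra, the growth factor receptor of precursors, at 0.13 (SE 0.089) and Ptprz1 at -0.054 (SE 0.11). Tnr lay between 296 and 308 CPM in flow-through KO and between 204 and 265 CPM in flow-through WT, without overlap. It differed by 0.34 (SE 0.093, edgeR adjusted p = 0.121). Of the 9 precursor genes, 1 had every KO library above every WT library and 0 had every KO library below. These counts are near the 5.19% and 6.78% of all genes tested. Of the genes of these lists named here, Bcas1 shares 12.556% of its exon bases, Olig1 7.262%, Pdgfra 6.504% and Cers2 5.958% with other genes, mainly on the opposite strand. Vcan, which macrophages also make, was lower in the flow-through than in the CD45 fraction by -1.74, and 8 of the 9 precursor genes were higher.

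Genes of peripheral nerve myelin were measured as a list of another myelinating cell. No level is given for Pmp2, a lipid-binding protein of that myelin, because 86.932% of its exon bases are shared with Gm37389 on the same strand. The 6 genes of the list summed to between 22.8 and 25.045 CPM in flow-through KO and between 22.1 and 28.98 CPM in flow-through WT, most of it Drp2.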

How the data were processed

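The authors deposited gene counts, whole numbers of reads per gene, in 1 table for each fraction, and these counts were used as deposited. Per the submitters' processing notes, Trim Galore, FastQC, STAR 2.7.9a, DESeq2 and the build GRCm38 were used. Per the labels' protocols, the kit was stranded and selected mRNA. How reads were counted per gene, with which strand setting and on which annotation, is not given in the sources used here, so exon overlaps over 5% are marked for the genes of the lists that are named, and were not looked up for other genes. Normalized tables made by the authors were not used here.

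Of 33223 genes, 33130 were matched to GENCODE M21 (GRCm38) for names, positions and exon lengths, and all 145 symbols of the gene lists were found. The 9 genes and the lists were chosen with earlier results of these data known. CPM was computed from each library's total count, without TMM factors. The quasi-likelihood test of edgeR 4.0.16 (R 4.3.3, limma 3.58.1) was run with TMM scaling, robust fitting and the filter filterByExpr, whose minimum is 10 per library and 15 overall. Adjustment was by Benjamini-Hochberg over all genes tested, and an adjusted p under 0.05 was called. Genotypes were compared within a fraction, and fractions and the interaction over 14 libraries with 1 mean per group. Likeness used log2 CPM with a prior count of 2 among genes with a mean of at least 1. Groups follow the labels, and replicate numbers are names only.

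The genes named are the 9, the members of a list that passed a genotype test, otherwise up to 4 members with the highest flow-through CPM, and the 10 genes most like the set. Gad2, Slc17a7, Syn1 and Slc12a5 are named as called. Cd9, Gamt and Sirt2, and the genes nearest to Mbp in the CD45 fraction, were named after their values were seen. Some genes of the lists are not reported here by name. Alternatives were RLE and upper-quartile scaling, no filter, the DESeq2 1.42.0 Wald test, leaving out each library, removal of GC and length trends, a joint fit, and entering the library left out. The fit was tested on simulated counts of 16539 genes, in which it recovered 100% of genes changed by 1 on the log2 scale in the flow-through comparison. In that simulation all genes shared the same spread, and only well-counted genes were changed. It does not show power for smaller differences such as those of the 9 genes.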

Additional observations from a re-analysis of the deposited data

Results flagged for a closer look

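Of 18 groups of 4 libraries checked for a library far from the others, 3 held one, where chance alone marks about 1 group in 20 and the groups share the same 8 libraries. Mag reached 1505.2 CPM in flow-through WT replicate 2, against 1319 to 1335 CPM in the other flow-through WT libraries. Opalin reached 4.3183 CPM in CD45 KO replicate 2, against 2.07 to 2.42 CPM in the other CD45 KO libraries, on 89 counts. Fa2h reached 131.56 CPM in flow-through WT replicate 4, the library lowest in Mbp and Mobp, against 123.3 to 124 CPM in the other flow-through WT libraries.

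The library labelled flow-through WT replicate 5, which no comparison in the report uses, stands in the count table of the CD45 fraction. The 9 genes summed to 503.02 CPM there. This lies within the 357 to 1462 CPM of the CD45 libraries and far below the 19062 to 34988 CPM of the flow-through libraries. Its ratio of Mbp plus Mobp to the other 7 genes was 4.67. Leukocyte markers summed to 9611 CPM in that library, against 7.44 to 13.3 CPM in flow-through libraries and 8484 to 12042 CPM in CD45 libraries. These values were not used to assign the library to a group.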

How the results depend on the processing

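The 9 genes were called in the flow-through over CD45 comparison under every alternative run, and 0 of 9 were called by genotype or interaction, with 1 exception. With no filter on low counts, 1 of the 9 was called in the flow-through by edgeR, Mbp, at 0.445 (SE 0.115, adjusted p = 0.00848). The adjusted p of Mbp ran from 0.182 (DESeq2) to 0.979 (joint fit of 14 libraries) in its other alternatives, and its value from 0.134 to 0.741.

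The number of genes called in the flow-through, 260, was 629 with no filter, 416 with DESeq2, 30 in the joint fit and 0 when flow-through WT replicate 5 entered under its label. Leaving out 1 library at a time gave 134 to 287. In the CD45 fraction, DESeq2 called 5 genes, and leaving out 1 library gave 0 to 1. For the interaction, no filter gave 15, DESeq2 gave 45, and leaving out 1 library gave 0 to 2.

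Small genotype differences changed sign. In the flow-through, Mog was 0.003 with no filter, 0.009 with GC and length trends removed and 0.013 in the joint fit, and Fa2h was -0.01 with those trends removed. With that replicate 5 entered under its label, Mog was 0.308, Mag 0.272 and Cldn11 0.169. That library held 9611 CPM of leukocyte markers, against 7.44 to 13.3 CPM in the flow-through libraries used. Leaving out 1 library gave -0.092 to 0.064 for Mog, -0.113 to 0.029 for Mag, -0.037 to 0.081 for Mal and -0.03 to 0.116 for Fa2h. Without both KO replicate 3 and WT replicate 4, a choice made after seeing the data, Mobp was -0.089 and Fa2h -0.018.

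In the CD45 fraction, leaving out 1 library gave -0.686 to 0.905 for Mbp, -0.594 to 0.908 for Mobp, -0.067 to 0.346 for Mog, -0.165 to 0.08 for Mag and -0.101 to 0.05 for Cnp. Without both KO replicate 4 and WT replicate 3, also chosen after seeing the data, Mbp was 0.597 and Mobp 0.641. Except where libraries were left out, the cause of these changes was not tested. No paired analysis was possible because the labels carry no replicate numbers shared between groups. Depth limits Fa2h, Opalin and Mog in the CD45 fraction, with 6 to 95 counts per library.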

Other observations

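The genes that moved with Mbp in both fractions were read by name after the sets were seen. Besides Mobp, Plekhb1, Dbndd2, Prr18, Bcas1, Pkp4, Scd1 and Trp53inp2, the 14 genes were Map4, Nudt18, Pdgfb, Nuak1, Hist1h2al and Cdip1. Scd1, a fatty acid desaturase, had r = 0.967 with Mbp in the flow-through and 0.970 in the CD45 fraction, and was 4.10 higher in the flow-through on the log2 scale. Map4, which encodes a microtubule-associated protein, had r = 0.966 in the flow-through and 0.965 in the CD45 fraction and was 1.58 higher in the flow-through. Pdgfb, which encodes a growth factor subunit, had r = 0.915 in the flow-through and 0.939 in the CD45 fraction but was lower in the flow-through, at -4.10. Of the 14, 10 had a positive difference of flow-through over CD45 and 4 a negative one. The likeness rests on 7 libraries in each fraction and carries no test. Apart from Mobp, whose flow-through relation with Mbp rested on WT replicate 4 and KO replicate 3, it was not recalculated without extreme libraries.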
